A study of Mus musculus with 8 samples.

Results

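The integrin and laminin genes were studied in immortalized mouse dental papilla cells of 2 Bmp2 genotypes. They were taken by symbol, as every gene named Itga, Itgb, Lama, Lamb or Lamc with its number or letter. The rule used no measured value, but it was chosen with earlier results of these data known. The rule found 37 of the 22609 gene symbols in the count tables. These were 18 integrin α, 8 integrin β, 5 laminin α, 3 laminin β and 3 laminin γ genes. The 2 cell lines compared were iBmp2 fx/fx cells, which are homozygous for a floxed Bmp2 allele and serve as the control, and iBmp2 ko/ko cells, in which Bmp2 is knocked out. Total RNA of each line was sequenced in 1 library at each of 6, 24, 48 and 72 h of culture, 8 libraries in all, with single-end reads of 50 bases. Each genotype is a single immortalized line, no treatment is given in the labels, and separate cultures of 1 time were not sequenced. The libraries of 6, 48 and 72 h therefore stood in as 3 replicates per genotype. The p-values measure the spread between these libraries, and line and genotype cannot be told apart.

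Integrins are cell surface receptors made of 1 α and 1 β chain. They tie the extracellular matrix to the actin cytoskeleton and signal into the cell when they bind it. The α chains fall into collagen receptors, laminin receptors, receptors for matrix proteins with the RGD motif such as fibronectin, and leukocyte receptors. Laminins are secreted cross-shaped trimers of 1 α, 1 β and 1 γ chain and form the first sheet of a basement membrane. In the tooth germ a laminin-rich basement membrane lies between the dental epithelium and the papilla, and the papilla cells that touch it become odontoblasts, the cells that lay down dentin.

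Checks of the libraries bear on all results. Bmp2 itself was covered by 1 read, in fx/fx cells at 24 h, and by 0 in each of the 7 remaining libraries. The counts of the targeted gene therefore did not separate the genotypes. The library labelled iBmp2 ko/ko, 24 h stood apart from its group. Its log2 levels, centred on each gene's mean, had a correlation across genes of 0.840 with the iBmp2 fx/fx library of 6 h, against -0.0988, -0.376 and -0.734 with the ko/ko libraries of 6, 48 and 72 h. Over genes, the median chi-square of its counts against the fx/fx library of 6 h was 1.16, where sampling noise alone gives 0.455 and the other 27 pairs of libraries gave 6.61 to 81.6. Of the 26 members with enough reads to test, 15 were nearest in that library to the fx/fx library of 6 h, 7 to the other fx/fx libraries, 4 to the ko/ko library of 6 h and 0 to those of 48 or 72 h. The median difference of the members between these libraries was 0.0901 on the log2 scale, against 0.226 to 1.17 for the other pairs. Both libraries of 24 h were kept out of the tests below and their values are given apart.

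The reads counted on genes numbered 25890110 in the shallowest and 32415665 in the deepest library. The smallest level counted as detectable, 3 reads, was 0.0925 to 0.116 CPM, the reads on a gene scaled to 1 library size for all libraries, and this floor covers counting error only. Of 13 markers of papilla mesenchyme 11 passed the filter on low counts, and Barx1 and Lhx8 were at 3 reads or fewer in every library. With the block described below, Vim was higher in ko/ko cells and Msx1, Dlx1, Dlx2 and Runx2 lower, Dlx2 by -2.91 ± 0.38 on the log2 scale (adjusted p 0.00227). Of 5 odontoblast markers 3 passed the filter and Dspp, the main dentin matrix gene, was at 3 reads or fewer. Alpl, the alkaline phosphatase of mineralizing cells, was lower in ko/ko cells also without the block (log2 fold change -5.61 ± 0.72, adjusted p 0.0153). Of the epithelial, endothelial and muscle markers 0 were called without the block in edgeR, at adjusted p of 0.134 or more, and 5 had an unadjusted p under 0.05 (Krt14, Trp63, Kdr, Tek and Des). Of 10 epithelial markers Krt14 and Trp63 passed the filter, while Krt5, Ambn, Amelx and Enam were at 3 reads or fewer, and the summed level was 1.25 to 3.06 CPM in fx/fx and 0.963 to 2.52 CPM in ko/ko libraries. With the block Trp63 was higher in ko/ko cells (log2 fold change 2.86 ± 0.72, adjusted p 0.0279) and Krt14 lower (-1.45 ± 0.41, 0.0414). Of 6 endothelial markers, summing to 2.26 to 5.55 and 1.93 to 4.47 CPM, Tie1 was at 3 reads or fewer, Tek was higher with the block (1.53 ± 0.35, 0.0204) and Kdr lower (-1.30 ± 0.28, 0.0166). Of 3 muscle markers, summing to 7.78 to 13.4 and 3.45 to 5.23 CPM, Myog was at 3 reads or fewer and Des, the desmin gene, was lower with the block (-1.35 ± 0.21, 0.00480). The part of these marker differences in the results below was not tested. The share of alignments with more than 1 place in the genome, which is not part of the counts, was 41.3% to 45.6% in the fx/fx and 42.7% to 49.6% in the ko/ko libraries of 6, 48 and 72 h. It was higher in the ko/ko library at each time, 48.4% against 42.9% at 6 h, 42.7% against 41.3% at 48 h and 49.6% against 45.6% at 72 h. Its part in the results was not tested either.

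Of the 37 members, 26 passed edgeR's filter on low counts, namely 10 integrin α, 7 integrin β and 9 laminin genes. The other 11 were close to absent. Their highest counts in any library were 15 for Itgal and Lama1, 14 for Itga2, 13 for Lamc3, 3 for Itgad, Itgam and Itgax, 2 for Itga9, and 1 for Itga4, Itga8 and Itgb6. They include the α chains that leukocytes pair with β2 (Itgal, Itgam, Itgax and Itgad), the α4 and α9 chains, the epithelial β6 chain and the α1 chain of the early embryonic laminin. The members together took 0.441% to 0.453% of the reads on genes in the fx/fx libraries of 6, 48 and 72 h. They took 0.383% to 0.405% in the ko/ko libraries of these times and 0.440% in the ko/ko library of 24 h.

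Per length, Itgb1 had the highest level of the members in every library, and Lamb2 the highest of the laminin chains. Levels between genes are compared in RPKM, which is CPM per kilobase of merged exons, as the mean over the 6 libraries of 6, 48 and 72 h. Itgb1, the β chain shared by most matrix receptors, had the highest level, 390 RPKM. It was followed by Itgb5 with 136 RPKM, and by Itga5, the fibronectin receptor chain that pairs with β1, with 122 RPKM. Among laminin chains Lamb2 stood highest with 93.6 RPKM, then Lamc1 with 44.0, Lamb1 with 17.8, Lama4 with 11.6 and Lama5 with 6.26 RPKM. Itgav and Itga3 stood at 15.2 and 10.1 RPKM. In the order of these 10 members, the 6 libraries of neighbours did not overlap between Itgb1 and Itgb5, Lamb2 and Lamc1, and Lamc1 and Lamb1. All other neighbours overlapped, such as Itgb5 and Itga5, which spanned 100.3 to 202 and 68.3 to 179 RPKM. Lama5 was the higher of the main laminin α chains at 6 h and Lama4 at 48 and 72 h, in both genotypes. Lama3, with a mean of 0.0617 RPKM, and Itgb8, with 0.108 RPKM, were the lowest members that were tested.

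**Figure D1:**
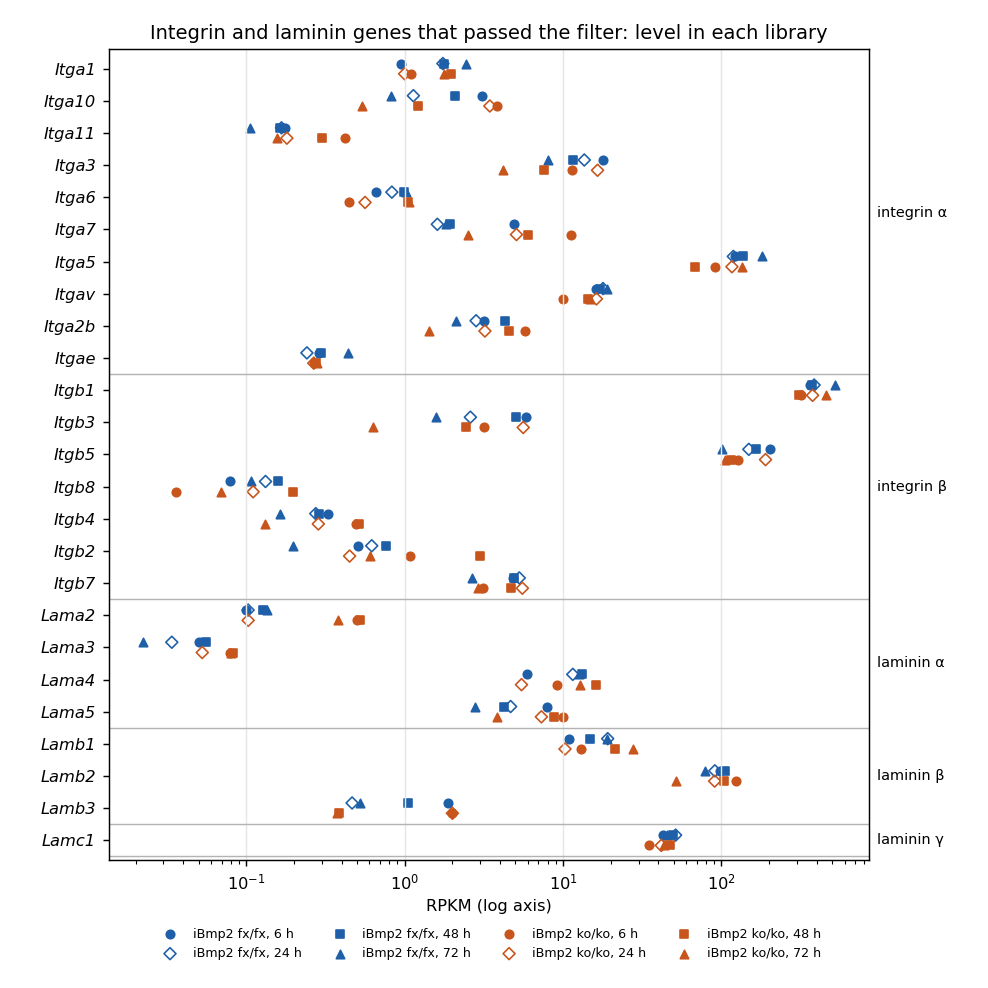
Level of 25 of the 26 tested members in RPKM on a log axis, 1 point per library. Blue points are iBmp2 fx/fx and orange points iBmp2 ko/ko, the marker shape gives the culture time, and open diamonds are the 24 h libraries. Itgb1, Itgb5, Itga5 and Lamb2 lie at the right with means of 390, 136, 122 and 93.6 RPKM, and Lama2 shows 3 orange points apart from all blue points.

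The first comparison asked which receptor and matrix chains differ between the floxed and the knock-out line. Lama2, the α2 laminin chain of muscle and nerve basement membranes, was higher in iBmp2 ko/ko cells and was the one member past an adjusted p of 0.05 with genotype alone in the model. With culture time added as a block, so that libraries of the same labelled time are compared, 10 of the 26 members differed. Higher in ko/ko cells were 6, the laminin chains Lama2, Lama5 and Lamb1 and the integrin chains Itgb2, Itga7 and Itga11. Lower were 4, Itgb3, Itga3, Itga5 and Itgav, all of them integrin chains. Each of these 10 had the same sign at 6, 48 and 72 h. The test with the block favours such members, so this is no separate support. Of all 26 tested members, 8 were higher and 7 lower in ko/ko cells at all 3 times. The share over all genes was not counted.

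The background in the whole table sets these counts in proportion. Without the block, edgeR's quasi-likelihood F test, adjusted over all 13121 genes by the Benjamini-Hochberg method, called 0.915% of genes higher and 1.3% lower in ko/ko cells. Of the members, 1 was called higher and 0 lower. The study's methods name a p value, read here as unadjusted, while a figure legend of the study names a Q value. At the study's limit, an absolute log2 fold change over 1 with an unadjusted p under 0.05, 3.31% of genes were higher, Itgb2 and Lama2 among them, and 4.04% lower, with 0 members. No lower member had an unadjusted p under 0.05 in that fit. With the block, 11.3% of all genes were called higher and 11.4% lower, against 23.1% and 15.4% of the tested members. The share of lower members was near that of all genes and says nothing about the members as a list. At the study's limit the block gave 4.22% of genes higher, with Itga7, Itgb2 and Lama2, and 5.24% lower, with Itgb3. Median log2 fold changes with the block were 0.02 over all genes tested, -0.19 over 10 integrin α, -0.21 over 7 integrin β and 0.33 over 9 laminin genes, given as a description. With all 8 libraries 0 members were called without or with the block, while 2 and 3 members passed the study's limit.

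**Figure D2:**
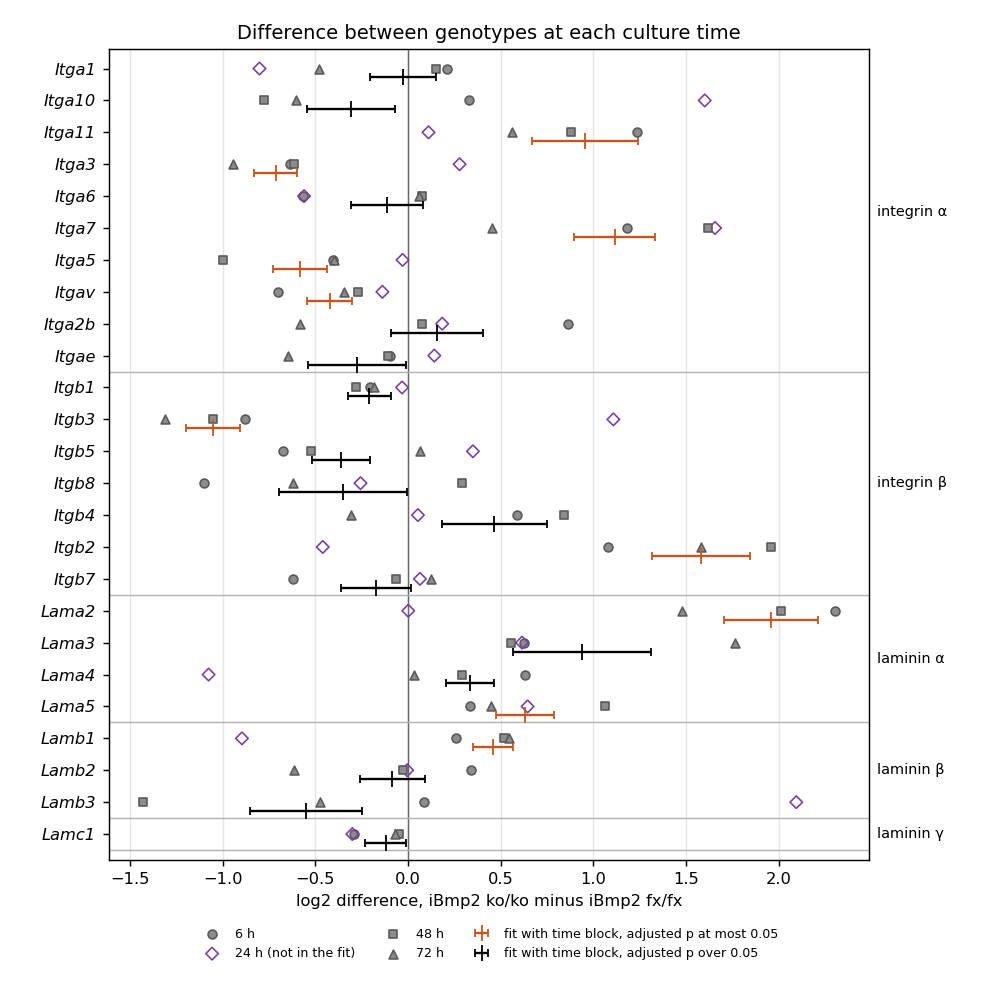
Difference in log2 level between iBmp2 ko/ko and iBmp2 fx/fx cells for 25 of the 26 tested members, 1 point per culture time, with open diamonds for 24 h. Vertical ticks with bars give the log2 fold change ± SE fitted over 6, 48 and 72 h with culture time as a block, in orange where the adjusted p was at most 0.05, which holds for 10 of 26 members. Lama2 and Itgb2 lie farthest to the right and Itgb3 farthest to the left of these 10.

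Promoters are shown for 3 of the 10 members: Lama2, the member with the largest difference, and Lamb1 and Itga5, the most abundant per length among the higher and the lower members. Each is the stretch of 250 bases before the RefSeq start site on GRCm38.p6, on the strand of the gene. Lama2 lies at chr10:27616943-27617192 on the minus strand, Lamb1 at chr12:31265043-31265292 on the plus strand and Itga5 at chr15:103366792-103367041 on the minus strand. The motifs searched, 4 in all, were sought on both strands: the GC box GGGCGG, the GC-rich Smad motif GGCGCC, the AP-1 motif TGACTCA and the TATA box TATAAA. Capitals mark the matches, which do not overlap each other in these windows.
Lama2: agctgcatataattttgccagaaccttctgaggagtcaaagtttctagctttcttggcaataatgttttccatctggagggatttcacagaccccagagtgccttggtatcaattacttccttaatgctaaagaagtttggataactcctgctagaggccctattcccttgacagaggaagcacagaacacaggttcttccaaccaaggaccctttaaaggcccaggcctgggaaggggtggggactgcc
Lamb1: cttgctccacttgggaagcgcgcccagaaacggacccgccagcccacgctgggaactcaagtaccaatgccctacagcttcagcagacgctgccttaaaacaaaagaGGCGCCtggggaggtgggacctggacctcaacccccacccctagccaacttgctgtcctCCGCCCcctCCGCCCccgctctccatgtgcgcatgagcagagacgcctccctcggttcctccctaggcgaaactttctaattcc
Itga5: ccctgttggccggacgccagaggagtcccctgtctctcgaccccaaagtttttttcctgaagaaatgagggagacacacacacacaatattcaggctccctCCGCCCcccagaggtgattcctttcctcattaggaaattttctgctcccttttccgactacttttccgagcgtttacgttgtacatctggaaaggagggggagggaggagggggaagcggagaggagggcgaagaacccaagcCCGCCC

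The Lamb1 window held 2 GC boxes and 1 GC-rich Smad motif, the Itga5 window held 2 GC boxes, and the Lama2 window held none of the 4 motifs. Of 32851 RefSeq promoters of the same length, 32.7% held a GC box, 9.59% the GC-rich Smad motif, 4.46% the AP-1 motif and 12.4% the TATA box. GC content was 47.2% for Lama2, 62.0% for Lamb1 and 55.6% for Itga5, against a median of 52.4% over all promoters. RefSeq entries matched 23 of the 37 members and 7 of the 10 members that differed with the block. Of the others among these 7, Lama5 held 4 GC boxes and 1 GC-rich Smad motif, the windows of Itga3 held 1 and 3 GC boxes, and those of Itga11 and Itgav held none of the 4. A match describes the letters and not a bound site.

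Among the laminin α chains, Lama2 (mm9 chr10:26701094-27336748, minus strand) showed the clearest difference. It stood at 0.967, 1.24 and 1.31 CPM in the fx/fx libraries of 6, 48 and 72 h, and at 4.84, 5.05 and 3.69 CPM in the ko/ko libraries of the same times. The groups did not overlap, with means of 1.17 ± 0.183 CPM (SD, n = 3) and 4.53 ± 0.731 CPM (SD, n = 3). At 24 h both genotypes stood at 1.00 CPM, so the ko/ko library of that time lay with the fx/fx group. The log2 fold change was 1.96 ± 0.31 (SE) without the block, with an adjusted p of 0.0254 in edgeR, and 1.96 ± 0.25 with the block, with an adjusted p of 0.00223. Without the block the call held when the ko/ko library of 72 h was left out. It was lost when any of the other 5 was left out, with adjusted p from 0.0271 to 0.159 over the 6 fits, while the log2 fold change stayed between 1.83 and 2.07. With all 8 libraries the adjusted p was 0.483 without and 0.108 with the block.

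Lama5 (mm9 chr2:179911078-179960564, minus strand), the α chain of the laminins that are widespread in adult tissues, was higher in ko/ko cells at each time. Its levels were 90.3, 48.2 and 31.9 CPM in fx/fx and 113.9, 100.6 and 43.5 CPM in ko/ko cells at 6, 48 and 72 h. The ranges of the genotypes overlapped, and both sets of values were highest at 6 h. With the block the log2 fold change was 0.63 ± 0.16, with an adjusted p of 0.0264 in edgeR. At 24 h Lama5 stood at 53.3 CPM in fx/fx and 83.3 CPM in ko/ko cells. Without the 48 h libraries the adjusted p was 0.0696 and without those of 72 h 0.0776.

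Lama4, the α chain of mesenchymal and vascular basement membranes and the α chain with the highest mean level, stood at 71.4, 158.4 and 151.5 CPM in fx/fx and 110.6, 194.1 and 155.1 CPM in ko/ko cells. Its difference narrowed from 0.63 at 6 h to 0.03 at 72 h on the log2 scale, and with the block it was 0.33 ± 0.13 with an adjusted p of 0.104. At 24 h the order was the other way, with 139.2 CPM in fx/fx and 66.0 CPM in ko/ko cells. Lama3, the α chain of the epithelial laminin that anchors hemidesmosomes, was rare. It had 17, 19 and 7 reads in fx/fx and 25, 27 and 21 reads in ko/ko libraries. The 2 groups did not overlap, and the adjusted p with the block was 0.108. Across the table, 9.04% of genes had all 3 ko/ko libraries above all 3 fx/fx libraries, and 2 members did, Lama2 and Lama3. The reverse held for 11% of genes and for 2 members, Itgae and Itgav. Neither count of members exceeded the share over all genes, at 7.69% of those tested.

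Lamb1 (mm9 chr12:31950099-32014509, plus strand), the β chain of the laminins found early in development, was higher in ko/ko cells. Its levels were 108, 147.8 and 187.6 CPM in fx/fx and 129.3, 211.4 and 274.2 CPM in ko/ko cells at 6, 48 and 72 h. The ko/ko value was the higher one at every time, though the ranges overlapped. With the block the log2 fold change was 0.46 ± 0.11, with an adjusted p of 0.0230 in edgeR. At 24 h the order was the other way, with 189.9 CPM in fx/fx and 102.1 CPM in ko/ko cells. The adjusted p was 0.0622 without the 48 h and 0.187 without the 72 h libraries.

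Lamb2, the β chain with the highest level and known from mature basement membranes, stood at 548.4, 596.9 and 444.3 CPM in fx/fx and 693.4, 585.7 and 290.2 CPM in ko/ko cells. The difference turned from 0.34 at 6 h to -0.61 at 72 h on the log2 scale, and the adjusted p with the block was 0.759. Lamc1, the γ chain of most laminins, stood at 355.1, 407.8 and 376.1 CPM in fx/fx and 290.2, 393.9 and 358.9 CPM in ko/ko cells, with an adjusted p of 0.461. At 24 h Lamb2 stood at 511.7 and 510.2 CPM and Lamc1 at 425.3 and 345.4 CPM in fx/fx and ko/ko cells. Lamb3, the β partner of Lama3, had a log2 fold change of -0.55 ± 0.30 and an adjusted p of 0.222 with the block.

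The share of each chain within its class shows the same data per length. Lama2 made up 0.711%, 0.726% and 0.870% of the laminin α RPKM in fx/fx cells at 6, 48 and 72 h, and 2.52%, 2.03% and 2.21% in ko/ko cells. It thus stayed a minor α chain in both. Lama4 and Lama5 held nearly all of the α class, and the Lama4 share went from 42.3% at 6 h to 80.9% at 72 h in fx/fx cells and from 46.4% to 74.8% in ko/ko cells. Among β chains, Lamb1 went from 9.87% to 19.2% in fx/fx and from 9.42% to 34.7% in ko/ko cells, with Lamb2 holding most of the rest. The ratio of Lamb2 to Lamb1 was 4.18 in fx/fx and 1.87 in ko/ko cells at 72 h, and 8.96 and 9.46 at 6 h.

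**Figure D3:**
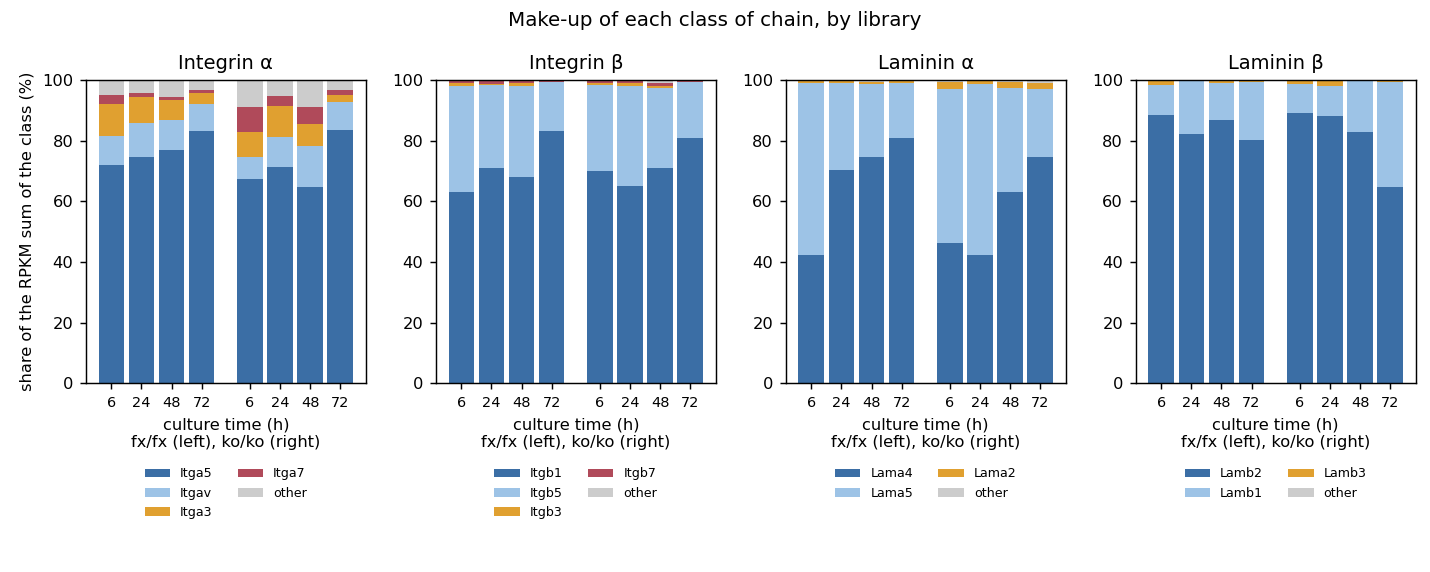
Share of each chain in the RPKM sum of its class, in percent, for integrin α, integrin β, laminin α and laminin β chains. Each bar is 1 library, with iBmp2 fx/fx at the left and iBmp2 ko/ko at the right of each panel. Lama4 makes up 42.3% of the α laminins at 6 h and 80.9% at 72 h in fx/fx cells, and the ko/ko bar of 24 h shows 42.3%.

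Among the integrin chains that take part in RGD receptors, Itga5, Itgav and Itgb3 were lower in ko/ko cells with the block, and Itgb1, Itgb5, Itgb8 and Itga2b did not pass the limit. Itga5 (mm9 chr15:103174720-103197194, minus strand) stood at 531.1, 596.3 and 785.3 CPM in fx/fx and 401.9, 299.1 and 595.5 CPM in ko/ko cells at 6, 48 and 72 h. The gap was widest at 48 h, where ko/ko cells held 0.501 of the fx/fx level. With the block the log2 fold change was -0.58 ± 0.14, with an adjusted p of 0.0265 in edgeR. At 24 h the genotypes stood at 521.1 and 510.7 CPM. The adjusted p was 0.0601 without the 48 h and 0.0629 without the 72 h libraries.

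Itgav (mm9 chr2:83564554-83647073, plus strand), the αv chain that pairs with several β chains and can activate latent TGF-β, stood at 174, 185.3 and 202.7 CPM in fx/fx and 106.9, 153.6 and 159.6 CPM in ko/ko cells. All 3 ko/ko values lay below all 3 fx/fx values. The log2 fold change with the block was -0.42 ± 0.12, with an adjusted p of 0.0421 in edgeR. It was 0.180 without the 6 h and 0.114 without the 72 h libraries. At 24 h Itgav stood at 192.2 and 174.7 CPM in fx/fx and ko/ko cells. An antisense gene, Gm13684, overlaps 634 bases of its exons, and the strand setting of the counting is not given in the sources used here.

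Itgb3 (mm9 chr11:104469370-104531790, plus strand), the β3 chain of the vitronectin receptor αvβ3, had the largest difference among the lower members. It stood at 34.1, 29.6 and 9.19 CPM in fx/fx and 18.5, 14.2 and 3.69 CPM in ko/ko cells. The ko/ko cells held 0.544, 0.482 and 0.401 of the fx/fx level at 6, 48 and 72 h. With the block the log2 fold change was -1.05 ± 0.15, with an adjusted p of 0.00285 in edgeR, and without it -0.98 ± 0.67 with an adjusted p of 0.592. At 24 h the order was the other way, 15.2 CPM in fx/fx and 32.8 CPM in ko/ko cells. The last value lies beside the 34.1 CPM of the fx/fx library of 6 h.

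Itgb5, the other αv partner, stood at 679.3, 555.4 and 337.1 CPM in fx/fx and 426.3, 386.7 and 352.3 CPM in ko/ko cells. Its log2 fold change with the block was -0.36 ± 0.16, with an adjusted p of 0.134, and its sign turned at 72 h. Itgb1 stood at 1486, 1529 and 2126 CPM in fx/fx and 1290, 1257 and 1870 CPM in ko/ko cells. Its values were lower in ko/ko cells at each time, by 0.20, 0.28 and 0.18 on the log2 scale, and the adjusted p was 0.231. At 24 h Itgb1 stood at 1572 CPM in fx/fx and 1537 CPM in ko/ko cells. Itgb8, which also pairs with αv, stood between 0.398 and 2.17 CPM in the 6 libraries, with an adjusted p of 0.493.

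Among the laminin-binding α chains, 1 was lower and 1 higher in ko/ko cells. Itga3 (mm9 chr11:94905788-94938115, minus strand), which binds laminins with an α5 or α3 chain, stood at 102, 66.3 and 46.2 CPM in fx/fx and 65.5, 43.3 and 24.0 CPM in ko/ko cells. It was lower at each time, with a log2 fold change of -0.71 ± 0.12 with the block and an adjusted p of 0.00561 in edgeR. At 24 h it stood at 77.8 CPM in fx/fx and 94.4 CPM in ko/ko cells.

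Itga7 (mm9 chr10:128370869-128395333, plus strand), the laminin receptor known from muscle, stood at 21.0, 8.28 and 7.81 CPM in fx/fx and 47.7, 25.4 and 10.7 CPM in ko/ko cells. The ko/ko cells held 2.27, 3.07 and 1.37 times the fx/fx level at 6, 48 and 72 h. With the block the log2 fold change was 1.12 ± 0.22, with an adjusted p of 0.0112 in edgeR. At 24 h the values were 6.85 and 21.6 CPM, and the ko/ko library of that time lay beside the 21.0 CPM of the fx/fx library of 6 h. The summed level of the muscle markers is given beside this. The sum of Myod1, Myog and Des was 7.78 to 13.4 CPM in fx/fx and 3.45 to 5.23 CPM in ko/ko libraries, with Myog at 3 reads or fewer. Itga6, the third laminin receptor chain, had an adjusted p of 0.697 and Itgb4, its hemidesmosome partner, of 0.267 with the block.

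Among the collagen-binding α chains, Itga11 (mm9 chr9:62525633-62631789, plus strand), a receptor for fibrillar collagen on mesenchymal cells, was the one that passed the limit. It was rare, with 29, 27 and 16 reads in fx/fx and 65, 48 and 20 reads in ko/ko libraries, which is 0.904, 0.837 and 0.539 against 2.15, 1.55 and 0.802 CPM. With the block the log2 fold change was 0.96 ± 0.29, with an adjusted p of 0.0493 in edgeR. The call was lost with DESeq2 (0.192) and limma (0.0661), without the filter (0.0558) and when any 1 of the 3 times was left out (0.0968 to 0.220). Itga1 and Itga10, the other tested collagen receptors, had adjusted p of 0.930 and 0.377 with the block.

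The leukocyte and platelet chains held 1 further difference. Itgb2 (mm9 chr10:76992997-77028453, plus strand), the β2 chain of leukocyte integrins, stood at 1.56, 2.33 and 0.606 CPM in fx/fx and 3.31, 9.10 and 1.85 CPM in ko/ko cells. The ko/ko cells held 2.12, 3.91 and 3.04 times the fx/fx level at 6, 48 and 72 h. The log2 fold change was 1.68 ± 0.71 without the block, with an unadjusted p of 0.0484 and an adjusted p of 0.351, and 1.58 ± 0.26 with it, with an adjusted p of 0.00601 in edgeR. At 24 h the order was the other way, 1.89 CPM in fx/fx and 1.37 CPM in ko/ko cells.

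The markers of leukocytes are given beside this value. Of 8 listed markers in the table, Ptprc, Emr1, Tyrobp and Cd3e were among those at 3 reads or fewer in every library. The summed level of the 8 was 27.8 to 44.2 CPM in fx/fx and 26.0 to 45.1 CPM in ko/ko libraries, most of it Cd14. With the block Cd68 and Csf1r were lower in ko/ko cells, with log2 fold changes of -1.25 ± 0.31 and -1.64 ± 0.32 and adjusted p of 0.0272 and 0.0118. Itgb7 and Itgae, a pair known from lymphocytes, had adjusted p of 0.538 and 0.485. Itga2b, the platelet chain, stood at 7.74 to 31.6 CPM in the 6 libraries with an adjusted p of 0.678, beside platelet markers of unlike level. Pf4 and Gp9 were at 3 reads or fewer, Ppbp stood at 0.125 to 0.775 CPM, and Gp1bb stood at 6.22 to 27.4 CPM and was lower in ko/ko cells with the block (log2 fold change -0.64 ± 0.16, adjusted p 0.0241). The summed level of the 4 was 10.1 to 27.6 CPM in fx/fx and 6.78 to 20.4 CPM in ko/ko libraries, and its part in the Itga2b values was not tested.

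**Figure D4:**
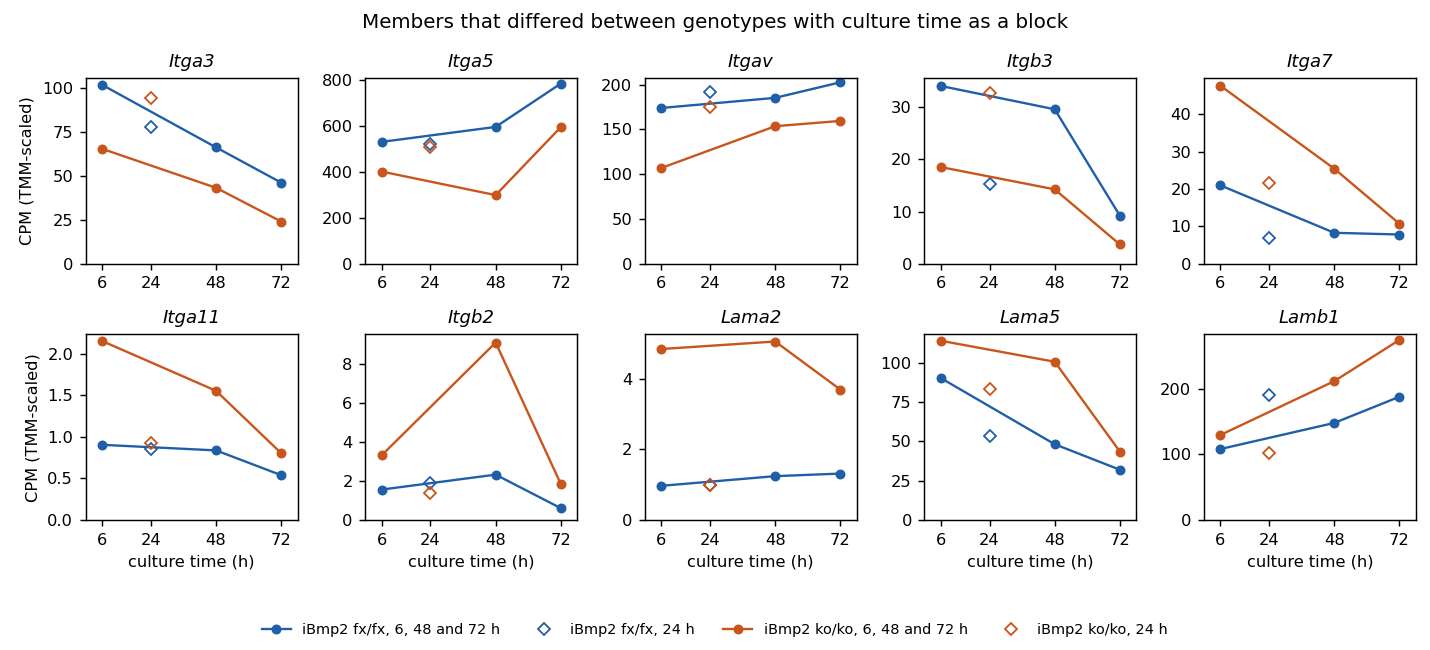
Level in CPM against culture time in hours for the 10 members that differed between genotypes with culture time as a block. Filled points joined by lines are the libraries of 6, 48 and 72 h and open diamonds those of 24 h, blue for iBmp2 fx/fx and orange for iBmp2 ko/ko. The Lama2 line of ko/ko cells lies at 3.69 to 5.05 CPM, above the fx/fx line at 0.967 to 1.31 CPM, while the ko/ko diamond of 24 h lies at 1.00 CPM.

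How firmly the 10 differences held varied between members. Lama2, Itgb3, Itgb2, Itga7 and Itga3 were called in each of 7 other fits with the block that left out the 24 h libraries: DESeq2, limma, upper-quartile scaling, no filter, and leaving out each of the 3 times. The highest adjusted p in these fits was 0.00843 for Lama2, 0.0143 for Itgb3, 0.0323 for Itgb2, 0.0461 for Itga7 and 0.0373 for Itga3. Itga5, Itgav, Lama5 and Lamb1 were called in 5 of the 7 and Itga11 in 1. At 24 h, 6 of the 10 had the sign seen at the other times (Itga11, Itga5, Itga7, Itgav, Lama2 and Lama5), Lama2 with a difference of 0.00 on the log2 scale, and 4 had the opposite sign. The ko/ko library of 24 h resembled the fx/fx library of 6 h, so these signs cannot show how firmly the genotype differences held.

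The second comparison asked how the chains moved with time in culture. The CPM values of 8 members were in falling order from 6 to 48 to 72 h in both genotypes, namely Itga10, Itga11, Itga3, Itga7, Itgb3, Itgb5, Lama5 and Lamb3. Those of 4 were in rising order in both, Itga6, Itgae, Itgav and Lamb1. Those of 6 were highest at 48 h in both, Itgb2, Itgb7, Itgb8, Lama3, Lama4 and Lamc1. In edgeR's test of a slope on the log2 of hours, 0 of 13121 genes passed an adjusted p of 0.05, while 2775 genes and 9 members had an unadjusted p under 0.05. Each adjusted p of the members was 0.169 or more.

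DESeq2 called 4.66% of genes higher with time and 2.43% lower, and 9 of the members. The 4 that rose were Itga1, by 0.29 ± 0.076 on the log2 scale per doubling of time (adjusted p 0.00699), Itga6 (0.0346), Lama4 (0.0148) and Lamb1, by 0.24 ± 0.062 (0.00530). The 5 that fell were Lamb3, by 0.58 ± 0.12 (0.000389), Itga7, by 0.45 ± 0.098 (0.000454), Itga10 (0.00231), Itga3 (0.00791) and Lama5 (0.0380). In edgeR, Itga7 and Lama5 passed the limit when the ko/ko library of 48 h was left out, with adjusted p of 0.0380 and 0.0389, and 0 members did when any of the other 5 was.

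From 6 to 72 h the log2 change was -1.42 in fx/fx and -2.15 in ko/ko cells for Itga7, -1.83 and -2.39 for Lamb3, -1.89 and -2.32 for Itgb3, and 0.80 and 1.08 for Lamb1. A difference in slope between genotypes was tested with an interaction term in edgeR. It was called for 0 genes at an adjusted p of 0.05. At an unadjusted p under 0.05 there were 63 genes and 0 members. The test had 2 residual degrees of freedom, and no other tool was run for it.

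Genes that work with integrins and laminins were taken from lists by function. Of 26 tested genes for adaptors that link integrins to actin, 2 were higher (Lims2 and Tns1) and 3 lower (Parvb, Ptk2 and Ptk2b) in ko/ko cells with the block, which is 7.69% and 11.5% of them beside 11.3% and 11.4% of all genes. Without the block 1 was lower. That was Parvb, the parvin-β adaptor, at 356, 343 and 288 CPM in fx/fx and 110, 120 and 163 CPM in ko/ko cells. Its log2 fold change was -1.32 ± 0.21, with an adjusted p of 0.0282 in edgeR without the block and 0.00231 with it. At 24 h it stood at 265 and 342 CPM, the other way round.

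Of 16 tested genes for other basement membrane parts and laminin receptors, Nid2 and Agrn were higher and Bcam, Col4a6 and Smoc1 lower with the block, which is 12.5% and 18.8% beside the same background. Nid2, a nidogen that links laminin to collagen IV, stood at 5.36, 5.30 and 6.67 CPM in fx/fx and 64.4, 74.7 and 36.6 CPM in ko/ko cells, and at 5.57 and 4.78 CPM at 24 h. Its log2 fold change without the block was 3.36 ± 0.32, with an adjusted p of 0.00681 in edgeR. Bcam, a receptor for laminin α5, stood at 20.0, 15.6 and 12.6 CPM in fx/fx and 5.50, 3.11 and 2.57 CPM in ko/ko cells. Its log2 fold change was -2.09 ± 0.37, with an adjusted p of 0.0380 in edgeR without the block. At 24 h Bcam stood at 12.8 CPM in fx/fx and 18.1 CPM in ko/ko cells, the other way round. Without the block these calls changed with single libraries: leaving out the 48 h library of either genotype gave Nid2 an adjusted p of 0.0569 (fx/fx) and 0.0522 (ko/ko), and Parvb and Bcam were lost in several such fits. With all 8 libraries and no block the adjusted p was 0.483 for Nid2, 0.497 for Parvb and 0.533 for Bcam.

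Of 20 tested genes for integrin ligands, 0 were called without the block in edgeR, where 2 had an unadjusted p under 0.05, and 2 were higher and 8 lower with it, beside the same 11.3% and 11.4% of all genes. The members of this list were chosen with earlier results known, and no test of the list was run. Fn1, the fibronectin gene and ligand of α5β1, stood at 3462, 9925 and 6437 CPM in fx/fx and 3567, 6212 and 3844 CPM in ko/ko cells, with an adjusted p of 0.120 with the block. Col1a1 had an adjusted p of 0.125. Per length Spp1, the osteopontin gene, had the highest mean of the list over the 6 libraries, 785 RPKM. Col1a1 stood above it in the ko/ko libraries of 6 h (728 against 427 RPKM) and 72 h (571 against 477 RPKM). Spp1 was lower in ko/ko cells with the block, with a log2 fold change of -0.67 ± 0.14 and an adjusted p of 0.0135. The 2 higher genes were Postn and Col1a2, and the 8 lower were Spp1, Thbs1, Thbs2, Npnt, Tgfb1, Tgfbi, Cyr61 and Fbn1, named after their values were seen. The log2 fold change was -1.66 ± 0.15 for Cyr61 and 1.38 ± 0.19 for Postn, with adjusted p of 0.000547 and 0.00267. The medians over the lists were 0.04 for adaptors, -0.30 for basement membrane genes and -0.38 for integrin ligands with the block, beside 0.02 over all genes tested.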

How the data were processed

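Total RNA of the 2 lines was sequenced in 8 libraries, 1 per genotype and culture time. The labels give the first time as 6 h and the series text as 8 h, and the labels were followed. Per the submitters' processing notes, CASAVA 1.8.2, TopHat2 2.0.8b, HTSeq and mm9 were used, and the authors deposited integer read counts per gene symbol without normalization. Where the labels name single-end reads of 50 bases, the study's methods name paired reads. HTSeq's version, annotation and strand setting are not given in the sources used here. Its 5 summary counters were left out. The 8 lncRNA tables hold no member and were not used.

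Counts were fitted over the whole gene table with edgeR 4.0.16 (R 4.3.3). The fit used TMM factors, filterByExpr (at least 10 counts, and 15 in total), the two-sided quasi-likelihood test and Benjamini-Hochberg adjustment over all genes tested, after tests on simulated data. A call was an adjusted p of at most 0.05. The study's limit was also counted. CPM were scaled by TMM over all 8 libraries, and lengths and positions came from GENCODE M1 on mm9, which matched all 37 members. The main fit had genotype alone over the libraries of 6, 48 and 72 h, the times in the study's methods.

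Libraries of 1 culture time deviated together from their genotype means, with correlations across genes of 0.698, 0.516 and 0.824 at 6, 48 and 72 h. The labels give this pairing, so values with culture time as a block stand beside the results. Alternatives were limma 3.58.1 (log2 CPM, prior count 0.5), DESeq2 1.42.0, other scaling, filters and libraries, and leaving out each library. The blocked fits other than those over 6 and 8 libraries were added after seeing the data. Members called at a genotype limit or with the block and the most abundant member of each class are given in full, other tested members by level or test, and partner genes where they were called without the block, at most 4 a list, or else as the 2 with the highest mean CPM. The results of 1 tested member are not reported here. The members and lists were chosen with earlier results of these data known. Promoter sequences are from RefSeq on GRCm38.p6, limited to the 250 bases before the start site.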

Additional observations from a re-analysis of the deposited data

Results flagged for a closer look

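In 6 of 50 groups, each the 4 libraries of 1 genotype for 1 tested member, a single library stood apart from the other 3 by Dixon's test on log2 CPM at its 95% critical value. Among replicates chance gives about 1 in 20 such groups. Here the 4 libraries differ in culture time, and each ko/ko group holds the 24 h library that resembled fx/fx cells of 6 h. The count therefore cannot be read against that rate. In 5 of the 6 the library was an iBmp2 fx/fx one at the start or the end of the time course. Itga7 was at 21.0 CPM in the fx/fx library of 6 h, against 6.85 to 8.28 CPM in the other 3. Lama4 was at 71.4 CPM in the same library, against 139.2 to 158.4 CPM. In the fx/fx library of 72 h, Itga11 was at 0.539 CPM against 0.837 to 0.904 CPM, Itgb7 at 7.31 CPM against 13.2 to 14.5 CPM, and Itgb1 at 2126 CPM against 1486 to 1572 CPM. Lama3 was at 0.556 CPM in the ko/ko library of 24 h, which is 15 reads, against 0.828 to 0.874 CPM in the other ko/ko libraries.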

How the results depend on the processing

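The count of members called for genotype was 1 and moved to 10 with culture time as a replicate block over 6 libraries, 0 with all 8 libraries, 0 with the block over 8 libraries, and 0 to 1 when each library was left out. Within the block it was 9 with DESeq2, 9 with limma, 10 with upper-quartile factors, 9 without the filter, 10 with 7 libraries (where the fx/fx library of 24 h has a block to itself and adds nothing on genotype), and 8, 6 and 5 without the libraries of 6, 48 and 72 h. At the study's limit the count was 2 and moved to 4 with the block, 1 with limma, and 1 (without the ko/ko library of 48 h) to 4 (without that of 72 h) when each library was left out. With the block it was 4 with DESeq2, limma, upper-quartile factors and 7 libraries, 6 without the filter, and 5, 4 and 4 without the libraries of 6, 48 and 72 h. The cause was not tested, except that fits without a time have fewer libraries. The culture time count of 0 moved to 9 with DESeq2 and lay between 0 and 2 when each library was left out, 2 without the ko/ko library of 48 h. The interaction count stayed 0 over all 8 and 7 libraries and with a slope on hours. No called member reversed. Over 23 alternative fits, 11 members that were not called changed sign 45 times in all, 18 of them Lamb2. Upper-quartile factors moved the median of all genes from 0.03 to 0.05 on the log2 scale.

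With 1 library per genotype and time, line, genotype and library cannot be told apart, and a difference at 1 time has no replicate. Itga11, Itgae, Itgb8 and Lama3 had fewer than 100 reads in all 8 libraries, Itgb2, Itgb4 and Lama2 in 6, Lamb3 in 4 and Itga10 and Itgb3 in 1, where counting error is large.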
